A study of Gallus gallus with 12 samples.

Results

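Yellow and white feather follicles were compared at 11 weeks of age, with the weight on well expressed genes and on functions other than the melanosome. The genes described were those with a mean FPKM (fragments mapped to a gene, scaled by gene length and by the mapped fragments of the library) of at least 1 over the 6 libraries of this age, which held for 11638 of the 24353 genes in the deposited table, and 9426 of the 11638 carried a gene symbol. The yellow group was made of libraries 1Y1, 1Y3 and 1Y4, and the white group of libraries 1W1, 1W3 and 1W4, each from newly emerged feathers of the nape of an F3 chicken from a cross of Huiyang Bearded and White Leghorn chickens. The follicle tissue contained both epithelium and pulp. Every bird of both colours carried at least 1 copy of Dominant white, an allele of PMEL that blocks black pigment. The genotypes given by the study were II in the 3 white birds and in 1Y4, and Ii in 1Y1 and 1Y3, so that Dominant white dosage and colour cannot be told apart fully. All birds were CC at the recessive white locus and s/W at the Silver locus, and none was treated. A further 3 yellow and 3 white libraries of 7 weeks were used only to set the colour difference of a gene at the earlier age beside its difference at 11 weeks.

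A growing feather is built by keratinocytes that multiply at the base of the follicle, sort into barbs under signals of the BMP, WNT, FGF and Hedgehog families, and then fill with keratins and corneous beta proteins. The dermal pulp in the centre supplies blood, and carries fibroblasts, smooth muscle and nerves. Melanocytes are a small share of the follicle. Agouti signalling protein and the melanocortin peptides, which act on the same melanocyte receptor, decide in many vertebrates between yellow and black pigment. In bulk tissue such as this, fewer cells of a type and less RNA per cell cannot be told apart.

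Fold changes are given as log2, yellow against white, on the scale log2(FPKM + 0.1), which understates the difference of low genes. They were tested with limma and adjusted over all 11638 genes by the Benjamini-Hochberg method, and a call needed a 2-fold difference or more (1 on the log2 scale) together with an adjusted p no higher than 0.05. By this rule 0 genes were called, which is 0% of the genes tested, and the smallest adjusted p was 0.234. An unadjusted p under 0.05 was reached by 474 genes higher in yellow (4.07%) and 359 genes lower in yellow (3.08%). A weaker description was therefore used throughout, namely whether every yellow library lay above, or below, every white library. An exact permutation test gives such a gene 0.10, the smallest two-sided p possible with 3 libraries on each side. Every yellow library lay above every white library for 939 genes (8.07%), and below for 682 genes (5.86%). These values hold for all 6 libraries. Without 1Y3, 2 genes were called and 1463 had an unadjusted p under 0.05, and without 1W1 or 1W4 that number was 447 or 553. The counts of members above or below white in the lists described next stand beside these shares of 8.07% and 5.86%. Of the genes tested, 276 reached a mean of 1 FPKM only in yellow and 121 only in white, and such a gene passed the filter through the group where it is high. By mean alone, 56.2% of genes were higher in yellow, a share that depended on the scaling. It was 52.6% with median-of-ratios scaling, 52.05% with totals made equal over genes under 500 FPKM, and 46.4% under quantile normalization. The words higher and lower below describe these 6 libraries, and no single gene passed the test used here. With a count-based test on the same libraries, the study did call genes, among them PMEL, TYRP1, MLANA and HPGDS. Its quantitative PCR also found these named genes and DCT significantly lower in yellow at the age described here. The absence of calls thus concerns the present test alone.

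The 6 libraries were not equally alike. The median SD of a gene was 0.22 log2 among yellow libraries and 0.11 among white libraries. In 1Y3, 461 genes were at least 2-fold above each of the other 5 libraries, against 100 in 1Y4, 45 in 1W1 and 6 to 11 in the rest. The 461 genes of 1Y3 had a median genomic span of 40900 bases, against 12520 bases over all genes tested, and included HIPK1 (18.9 FPKM in 1Y3 and 1.69 to 2.63 FPKM elsewhere) and LMNB2, a nuclear lamin (41.2 FPKM and 4.21 to 6.71 FPKM). The genes so placed in 1Y4 included the feather keratin FKCOSL, HBA1, POMC and TSPAN16, which are described further on. Those of 1W1 included JCHAIN, the joining chain of immunoglobulins, at 170 FPKM in 1W1 and 7.04 to 42.7 FPKM elsewhere. HIPK1, LMNB2 and JCHAIN were named after their values were seen. Marker sums of epidermis ran from 1369 to 1871 FPKM in yellow and from 1887 to 1945 FPKM in white libraries, so epidermis was present in every library. Those of dermal pulp were 1986, 1242 and 2929 FPKM in 1Y1, 1Y3 and 1Y4, and 1778 to 2249 FPKM in white libraries. The balance of pulp and epidermis thus varied most among yellow libraries, and 1Y4 had the highest pulp and lowest epidermis sum. Its part in the differences of other genes was not tested. Melanocyte marker sums were 114 to 171 FPKM in yellow and 308 to 605 FPKM in white libraries. PMEL, TYRP1 and MLANA, all pigment granule genes and among the markers summed, had log2 differences of -1.90, -2.64 and -1.55. TYR, another of the markers, overlapped between the colours. Of 23 tested genes of the melanosome list, 10 were higher and 13 lower in yellow, with a median of -0.16. In all libraries, 5 of them lay above white and 5 below.

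Genes of retinoic acid handling gave the gene with the smallest p of the whole comparison. Retinoic acid is made from retinol through retinaldehyde, is carried in the cytoplasm by binding proteins, acts through nuclear receptors and is removed by CYP26 enzymes. CRABP-I, a cytoplasmic retinoic acid-binding protein on chromosome 10, had 229, 204 and 241 FPKM in yellow follicles, against 116, 114 and 124 FPKM in white follicles. The groups did not overlap, and the ranges were narrow on both sides. Its log2 fold change was 0.93 ± 0.08 (SE, n = 3 each; limma adjusted p = 0.234). ALDH1A3, which oxidises retinaldehyde to retinoic acid, had 21.3, 20.5 and 16.4 FPKM in yellow and 11.1, 7.11 and 11.2 FPKM in white follicles, again with no overlap and a log2 fold change of 1.00 ± 0.21 (SE).

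The removing enzyme and 1 receptor lay on the other side. CYP26B1, which degrades retinoic acid, had 26.8, 29.9 and 20.8 FPKM in yellow and 37.1, 35.3 and 34.1 FPKM in white follicles. RXRG, a retinoid X receptor, had 1.10, 1.501 and 1.61 FPKM in yellow and 2.997, 3.13 and 2.57 FPKM in white follicles. Both were lower in every yellow library, by -0.47 and -1.01 log2. STRA6, the cell surface receptor for retinol bound to its carrier, was named after its values were seen, and overlapped, with 4.47, 2.84 and 5.52 FPKM in yellow and 2.70, 2.89 and 2.06 FPKM in white follicles. CRABP2, the other binding protein and the most abundant gene of the list, overlapped as well (212 to 401 FPKM in yellow and 175 to 300 FPKM in white follicles). Of the 21 members of the retinoid and carotenoid list that passed the expression filter, 12 were higher and 9 lower in yellow, 3 lay above and 3 below white in all libraries, and the median log2 fold change was 0.04, beside 0.03 over all genes tested. The list as a whole was therefore level, and the difference lay in named members on both sides.

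**Figure D1:**
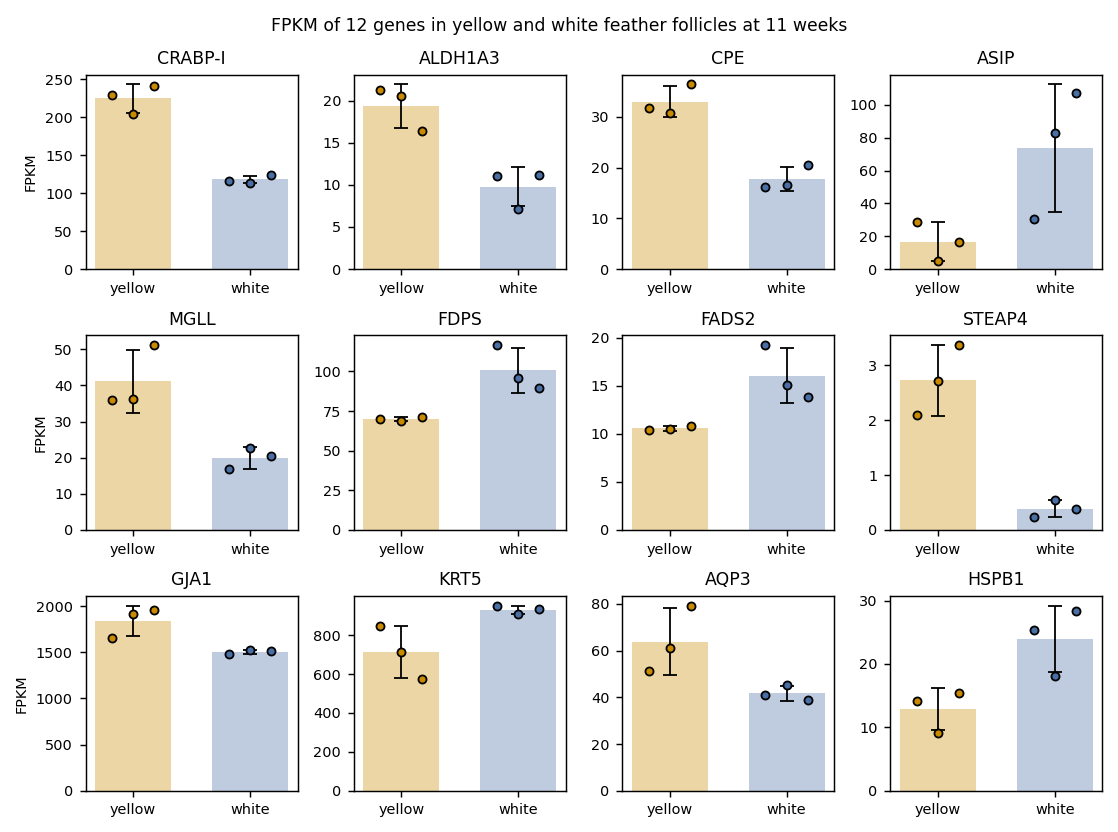
FPKM (vertical axes, starting at 0) of 12 genes in yellow (left) and white (right) follicles at 11 weeks, with each library as a point, the mean as a bar and the SD as an error line (n = 3 libraries each). No gene shown has overlapping groups, and CRABP-I (204 to 241 FPKM in yellow, 114 to 124 FPKM in white) has the smallest unadjusted p.

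Peptide hormone processing differed in the genes that surround the pigment switch. ASIP, the agouti protein that blocks the melanocortin receptor, had the largest negative difference among genes with a symbol, a mean of at least 10 FPKM and no overlap outside the melanosome list, at 28.5, 4.83 and 16.3 FPKM in yellow and 30.7, 83.2 and 107 FPKM in white follicles. The groups did not overlap, but 1Y1 and 1W1 were close to each other. The log2 fold change was -2.30 ± 0.73 (SE; limma adjusted p = 0.607). At 7 weeks the difference of ASIP was 1.04 and the groups overlapped, and the difference between the ages had an unadjusted limma p of 0.014 that did not pass adjustment. POMC, the precursor of the melanocortin peptides, passed the expression filter only through yellow and did not overlap, with 2.68, 5.64 and 20.4 FPKM in yellow and 0.35, 0.05 and 0.95 FPKM in white follicles. Its log2 fold change was 4.05 ± 0.94 (SE), and 1Y4 stood above the other yellow libraries. CPE, carboxypeptidase E, trims basic residues from peptides cut out of precursors such as proopiomelanocortin. It had 31.7, 30.8 and 36.5 FPKM in yellow against 16.2, 16.6 and 20.5 FPKM in white follicles, a log2 fold change of 0.89 ± 0.12 (SE; limma adjusted p = 0.322). SCG5, a chaperone of the prohormone convertase PCSK2, had 1.73, 1.20 and 1.71 FPKM in yellow and 3.69, 2.76 and 2.499 FPKM in white follicles. Of 13 tested members of the melanocortin list, 9 were higher in yellow and 4 lower, 3 lay above, POMC included, and 2 below white in all libraries, and the median was 0.33.

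Sterol synthesis genes leaned to the lower side in yellow. The pathway builds cholesterol from acetyl-CoA through mevalonate and squalene. Of 21 members tested, 19 were lower and 2 higher in yellow, 5 lay below white in all libraries (all genes, 5.86%) and 0 above, and the median log2 fold change was -0.25 (all genes, 0.03). FDPS, farnesyl diphosphate synthase, had 70.3, 68.5 and 71.1 FPKM in yellow and 117, 95.7 and 89.5 FPKM in white follicles. PMVK and MVD, which phosphorylate and decarboxylate mevalonate intermediates, had 43.1 to 48.2 and 22.2 to 24.5 FPKM in yellow, against 51.9 to 57.2 and 26.8 to 34.2 FPKM in white follicles. INSIG1, an endoplasmic reticulum protein that restrains the pathway and is itself induced with it, had 16.8, 17.9 and 20.3 FPKM in yellow and 26.1, 22.8 and 20.6 FPKM in white follicles. CYP51A1, lanosterol demethylase, had 78.7 to 95.9 FPKM in yellow and 88.0 to 136 FPKM in white follicles, which overlap. The white libraries themselves differed, since the median member stood 0.19 log2 above the white mean in 1W1 and -0.17 from it in 1W4, close to the yellow libraries at -0.30, -0.21 and -0.19. Without 1W1 the median was -0.17, and at 7 weeks it was -0.06.

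Other lipid genes lay on both sides. FADS2, the desaturase that starts the synthesis of long polyunsaturated fatty acids, had 10.4, 10.5 and 10.8 FPKM in yellow and 19.3, 15.0 and 13.8 FPKM in white follicles (log2 fold change -0.58 ± 0.14, SE). SRD5A1, a steroid 5-alpha-reductase, had 20.9, 28.4 and 12.7 FPKM in yellow and 37.5, 33.8 and 29.9 FPKM in white follicles. On the other side, MGLL, monoacylglycerol lipase, had 35.9, 36.3 and 51.3 FPKM in yellow and 16.7, 22.6 and 20.5 FPKM in white follicles, a log2 fold change of 1.03 ± 0.18 (SE; limma adjusted p = 0.370). APOA1, the main protein of high-density lipoprotein, averaged 27.0 ± 10.1 FPKM in yellow and 10.9 ± 4.93 FPKM in white follicles (SD, n = 3 each) with no overlap, and was higher at 7 weeks too, where the groups overlapped. ANGPTL4, an inhibitor of lipoprotein lipase, had 2.49 to 4.22 FPKM in yellow and 1.41 to 1.99 FPKM in white follicles. FABP7, a fatty acid-binding protein, had 8.10, 11.7 and 12.6 FPKM in yellow and 7.39, 3.54 and 5.90 FPKM in white follicles. Over the 41 tested genes of fatty acid and lipid droplet metabolism, 24 were higher and 17 lower, 5 lay above and 4 below, and the median of 0.03 equalled that of all genes.

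**Figure D2:**
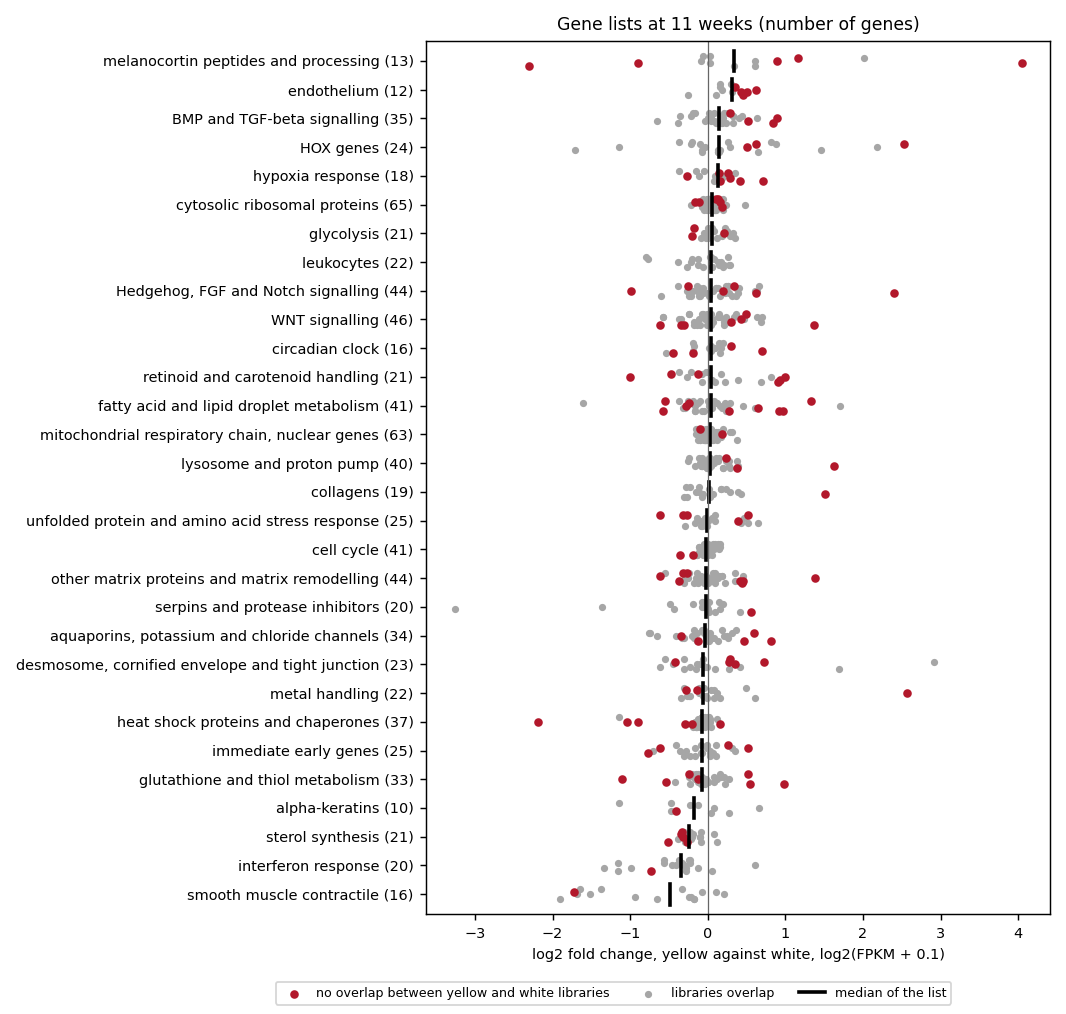
Log2 fold change at 11 weeks (horizontal axis, yellow against white, log2(FPKM + 0.1)) of each tested gene in 30 lists (rows, number of genes in brackets), with the list median as a black bar and genes without overlap between colours in red. Among the lists shown, medians run from -0.49 for smooth muscle to 0.33 for melanocortin peptides. Most of them have a median near 0 with single genes far to either side. Left out were the melanosome, feather keratin, striated muscle, erythroid, Schwann cell and plasma membrane lists. Their medians ran from -0.57 for striated muscle to 3.07 for feather keratins.

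Epidermal genes lay on both sides, from very abundant to scarce ones. GJA1, the gap junction protein connexin 43, had 1652, 1912 and 1959 FPKM in yellow and 1478, 1520 and 1519 FPKM in white follicles, and lay above white at 7 weeks as well (0.29 log2 at 11 weeks and 0.61 at 7 weeks). The desmosomal plakophilin PKP2 (3.58, 5.04 and 4.01 FPKM in yellow, 2.48, 2.35 and 2.66 FPKM in white), the cornified envelope protein PPL (50.4 to 73.6 FPKM in yellow, 45.8 to 49.2 FPKM in white) and GRHL3, a transcription factor of the skin barrier (33.0 to 37.8 FPKM in yellow, 28.3 to 30.5 FPKM in white), also lay above white at both ages. The list of desmosome, cornified envelope and tight junction genes was nevertheless level, with 9 of 23 genes higher in yellow, 4 above and 1 below white in all libraries, and a median of -0.06. KRT5, a keratin of basal keratinocytes, had 846, 714 and 577 FPKM in yellow and 949, 907 and 937 FPKM in white follicles. It was lower in every yellow library, most so in 1Y4. JUP (plakoglobin) and SFN (stratifin), named after their values were seen, followed the same order, with 367 to 595 FPKM and 1776 to 2434 FPKM in yellow against 654 to 694 FPKM and 2550 to 2626 FPKM in white follicles. AQP3, the water and glycerol channel of keratinocytes, had 51.4, 60.9 and 79.3 FPKM in yellow and 41.0, 45.4 and 39.0 FPKM in white follicles. BARX2, a homeobox factor, had 73.2, 76.9 and 33.4 FPKM in yellow and 138, 77.2 and 115 FPKM in white follicles, where 1Y3 and 1W3 almost met.

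The feather keratins that carry a keratin symbol turned largely on 1 library. Genes without a symbol could not be matched, so feather keratins may be missing from the list, and their level as a family is not described. The list, matched by the keratin symbols of the deposited table, had 13 entries of which 8 passed the filter, and all 8 had a positive log2 fold change with a median of 3.07. FKCOSL and FK27 had 252 and 62.2 FPKM in 1Y4 and were listed at 0 in the other 5 libraries, so the filter was passed through that library alone. BKJ and every FK21 entry also passed through yellow alone. The filter therefore favoured a positive sign in all members tested except F-KER, and the direction of the list is not a result. F-KER was listed at 0 in 1Y4, with 226 and 230 FPKM in 1Y1 and 1Y3, and with 4.98, 35.6 and 6.89 FPKM in white follicles. It lies on chromosome 25 between ENSGALG00000048841 and ENSGALG00000039987, which were also listed at 0 in 1Y4. Such a 0 can be a failed estimate. Only BKJ did not overlap, at 9.997, 0.42 and 4.90 FPKM in yellow and 0.15, 0.13 and 0.12 FPKM in white follicles. Without 1Y4 the median of the list was 0.51, and at 7 weeks it was -3.18. Feather keratins form a multigene family, and counts could have been split among similar copies, so their single values are uncertain. No sequences were compared here.

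The epidermal differentiation complex of chromosome 25, which holds many structural proteins of skin and feather, was examined after its values were seen. Between positions 2150062 and 3344000 of GRCg6a, 58 genes had a mean of at least 100 FPKM, 25 of them with a positive difference, 4 above and 5 below white in all libraries, and a median of -0.12. In 26 of the 58 genes at least 1 library had less than 1/10 of the highest library. ENSGALG00000027167 (positions 3123319 to 3124408) had 888, 1280 and 10730 FPKM in yellow and 18.9, 222 and 29.3 FPKM in white follicles, and its neighbour ENSGALG00000038424 (positions 3119913 to 3120647) had 646, 658 and 6042 FPKM in yellow and 11.4, 99.2 and 25.7 FPKM in white follicles. The colours did not overlap for either gene, and 1Y4 was far above the rest. The log2 fold changes were 5.53 ± 1.23 and 5.47 ± 1.10 (SE), and at 7 weeks they were -1.05 and -0.81. Other genes differed widely between libraries without following colour. ENSGALG00000049037 was listed at 0 in 1Y1, 1Y3 and 1W1, and had 1553 FPKM in 1Y4, 3054 FPKM in 1W3 and 3131 FPKM in 1W4. It was also listed at 0 in every library of 7 weeks, as were its neighbours ENSGALG00000049213 and ENSGALG00000049044. A 0 beside such values can be a failed estimate. EDMTF1 and EDMTF2 were high in 1Y3 (2834 and 853 FPKM), 1W3 (6343 and 3425 FPKM) and 1W4 (4977 and 2826 FPKM), and at most 2.58 FPKM in the other 3 libraries. Their spans overlap (positions 3186152 to 3187058 and 3186153 to 3195505), so they may not be separate observations. Of 19 tested chromosome 25 genes whose symbols begin with ED, 8 were higher and 11 lower in yellow, with 1 above and 4 below white in all libraries. EDCH3 had 2267, 2093 and 1464 FPKM in yellow and 3262, 2746 and 2556 FPKM in white follicles, and EDQM3, EDQM1 and EDCH5 were also below white in all libraries, by -0.32, -0.57 and -0.65 log2, of which EDQM3 turned to 0.036 under quantile normalization. EDMPN1 lay above white, with 7.65, 6.95 and 227 FPKM in yellow and 2.46, 5.28 and 4.22 FPKM in white follicles. Reads of such copies could also have been split here.

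**Figure D3:**
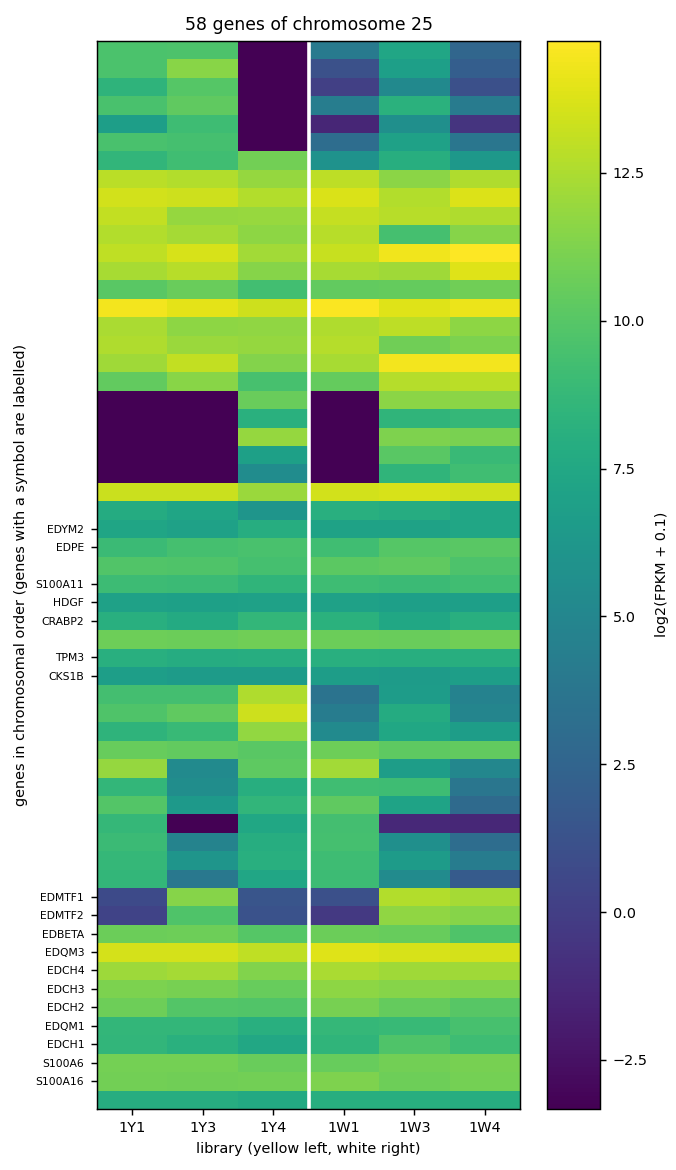
Heat map of log2(FPKM + 0.1) (colour scale) for 58 genes of the epidermal differentiation region of chromosome 25 in chromosomal order (rows), with the yellow libraries 1Y1, 1Y3 and 1Y4 left and the white libraries 1W1, 1W3 and 1W4 right of the white line. Blocks of neighbouring genes are dark in some libraries only, such as the block listed at 0 in 1Y1, 1Y3 and 1W1.

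Signals that pattern the feather differed in a few members. Of 35 tested genes of BMP and TGF-beta signalling, 27 were higher in yellow and 8 lower, 4 lay above and 0 below white in all libraries, and the median was 0.14. BMP2, a ligand of barb patterning, had 11.2, 11.9 and 26.7 FPKM in yellow and 8.79, 8.41 and 8.26 FPKM in white follicles. BAMBI, a decoy receptor that dampens the pathway, was named after its values were seen and had 78.2, 58.1 and 167 FPKM in yellow and 40.9, 56.4 and 50.8 FPKM in white follicles. INHBA, which forms activin A, had 6.58, 4.17 and 5.16 FPKM in yellow and 4.13, 3.26 and 3.48 FPKM in white follicles. GREM1, a secreted antagonist of BMPs, overlapped, with 8.77, 10.6 and 13.1 FPKM in yellow and 20.5, 19.0 and 12.2 FPKM in white follicles. The share of members above white (4 of 35) stands beside 8.07% for all genes, and without 1Y4 the median of the list was 0.01, so that the shift of the list sat in that library.

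In the WNT list, 26 of 46 genes were higher in yellow, 4 lay above and 3 below, and the median was 0.04. FZD6, a Frizzled receptor, had 24.3, 29.0 and 31.4 FPKM in yellow and 17.4, 22.8 and 20.01 FPKM in white follicles. WNT5A, a ligand of the dermal pulp and epithelium, had 39.8, 37.2 and 48.7 FPKM in yellow and 51.5, 55.4 and 51.6 FPKM in white follicles, and LGR6, an R-spondin receptor of skin stem cells in mouse, had 3.75 to 6.21 FPKM in yellow and 7.35 to 8.91 FPKM in white follicles. WNT16 lay on the other side, with 6.69 to 8.87 FPKM in yellow and 5.25 to 6.42 FPKM in white follicles. The list of Hedgehog, FGF and Notch signalling was level too, with 23 of 44 genes higher in yellow, 4 above, 2 below and a median of 0.04. NOTCH1 had 40.4, 45.0 and 42.3 FPKM in yellow and 36.7, 38.6 and 36.4 FPKM in white follicles and lay above white at 7 weeks as well, as did SPRY3, of a family that restrains FGF signalling (2.98 to 4.74 FPKM in yellow, 2.29 to 2.90 FPKM in white). FGF16, which passed the filter only through white, was lower in every yellow library (0.53 to 1.34 FPKM in yellow, 1.74 to 2.14 FPKM in white). Among growth factors outside these lists, PTHLH, parathyroid hormone-like hormone, had 14.1, 18.6 and 10.6 FPKM in yellow and 24.5, 19.3 and 25.4 FPKM in white follicles, and TGFA, a ligand of the EGF receptor, had 5.31, 10.2 and 9.69 FPKM in yellow and 13.7, 10.5 and 14.03 FPKM in white follicles.

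HOX genes, which keep the position of skin along the body axis, were tested in 24 members, 15 of them higher in yellow, with 3 above (all genes, 8.07%) and 0 below white and a median of 0.14. HOXD3 had 44.7, 35.6 and 44.2 FPKM in yellow and 20.7, 33.8 and 27.4 FPKM in white follicles. HOXC9, which passed the filter only through yellow, had 1.92, 2.49 and 2.77 FPKM in yellow and 0.06, 0.41 and 0.85 FPKM in white follicles. HOXA9 and HOXC8, the second of which also passed only through yellow, had higher means in yellow and overlapped, with 2.86 to 7.94 and 1.25 to 7.85 FPKM in yellow, and 1.45 to 2.88 and 0.45 to 1.44 FPKM in white follicles. HOXB4, the most abundant HOX gene, had 57.8 to 102 FPKM in yellow and 53.4 to 96.5 FPKM in white follicles. 1W1 was the lowest library for the list (-0.37 log2 from the white mean), and without it the median was -0.03, while without 1Y4 it was 0.04.

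Of the small heat shock proteins, HSPB1, CRYAB and HSPB2 lay below white in every yellow library, while HSPB7, which passed the filter only through white, overlapped (0.49 to 0.76 FPKM in yellow and 0.42 to 3.34 FPKM in white). HSPB1 had 14.2, 9.11 and 15.4 FPKM in yellow and 25.3, 18.2 and 28.4 FPKM in white follicles. CRYAB, alpha-B crystallin, passed the filter only through white and had 0.27, 0.52 and 0.25 FPKM in yellow and 2.54, 1.35 and 1.84 FPKM in white follicles. HSPB2 had 3.81, 5.07 and 2.59 FPKM in yellow and 8.54, 6.75 and 8.03 FPKM in white follicles. Its annotated span on chromosome 24 contains that of CRYAB, so their values may not be separate. The log2 fold changes of HSPB1, CRYAB and HSPB2 were -0.90, -2.19 and -1.05. HSPB1 and CRYAB were also below white in all libraries of 7 weeks, and HSPB2 was not. DNAJB1, a cochaperone of HSP70, had 133 to 156 FPKM in yellow and 161 to 170 FPKM in white follicles, whereas HSPA8, the most abundant member, overlapped. Over the whole list of 37 heat shock proteins and chaperones, 27 were lower and 10 higher in yellow, 5 lay below (all genes, 5.86%) and 1 above, with a median of -0.07. At 7 weeks the list lay on the other side, with 30 of 37 members higher in yellow and a median of 0.12. CRYAB, HSPB1 and HSPB2 are also found in muscle, and the smooth muscle markers summed to 42.0 to 90.4 FPKM in yellow and 50.0 to 165 FPKM in white libraries. Among white libraries the sum was lowest in 1W3, at 50.0 FPKM, beside 165 FPKM in 1W1 and 130 FPKM in 1W4. CRYAB (1.35 FPKM), HSPB2 (6.75 FPKM) and HSPB1 (18.2 FPKM) in 1W3 were above every yellow library. They were also lower there than in 1W1 and 1W4. The part of muscle in these genes was not tested.

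Contractile genes of smooth muscle were 14 of 16 lower in yellow, with a median of -0.49, but the white libraries were split. TAGLN (transgelin) had 10.6, 11.3 and 23.7 FPKM in yellow and 88.9, 16.8 and 64.6 FPKM in white follicles, and ACTG2, an enteric smooth muscle actin, had 6.15, 6.36 and 13.1 FPKM in yellow and 50.7, 12.6 and 42.6 FPKM in white follicles. 1W1 and 1W4 were high and 1W3 was at the level of yellow. DES (desmin) followed the same pattern, with 4.57 to 10.9 FPKM in yellow and 35.03, 7.72 and 29.8 FPKM in white follicles. PDLIM3 was the only member without overlap and passed the filter only through white, at 0.52, 0.94 and 1.00 FPKM in yellow and 3.94, 2.37 and 2.43 FPKM in white follicles. All 4 smooth muscle markers were in the table. Without 1Y4 the median of the list was -0.76, and at 7 weeks it was 0.20.

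Endothelial genes leaned to yellow, with 11 of 12 higher, 5 above (all genes, 8.07%) and 0 below white in all libraries, and a median of 0.31. VWF, von Willebrand factor, had 3.75, 5.14 and 5.87 FPKM in yellow and 3.31, 2.94 and 3.10 FPKM in white follicles. The angiopoietin receptor TEK had 6.12, 6.54 and 8.73 FPKM in yellow and 5.71, 4.29 and 5.48 FPKM in white follicles, and FLT4, the receptor of lymphatic vessels, had 1.91 to 2.11 FPKM in yellow and 1.34 to 1.39 FPKM in white follicles. The list stood highest in 1Y4 (0.67 log2 from the white mean), and without that library the median was 0.08. Among red blood cell genes, the globins HBA1, HBBA and HBM were highest in 1Y4, where HBA1 had 94.1 FPKM, beside 16.3 and 19.4 FPKM in 1Y1 and 1Y3 and 10.1 to 23.2 FPKM in white follicles. ALAS2, which starts haem synthesis in red cells and was named after its values were seen, was lowest in 1Y4 (18.3 to 26.7 FPKM in yellow and 18.5 to 25.5 FPKM in white), and CA2, a carbonic anhydrase, was highest in 1Y3 (251 to 360 FPKM in yellow and 194 to 346 FPKM in white). Genes of the interferon response were lower in yellow in 18 of 20 members with a median of -0.35, of which only IFIH1, a sensor of double-stranded RNA, did not overlap (1.71 to 2.11 FPKM in yellow, 2.38 to 5.27 FPKM in white). The interferon-induced OASL had 17.9, 4.84 and 8.26 FPKM in yellow and 75.5, 4.84 and 22.1 FPKM in white follicles. Without 1W1 the median of this list was -0.01, and at 7 weeks all 20 members were higher in yellow with a median of 0.50. At that age IFIH1 and OASL overlapped and were highest in 1 yellow library, 7Y4. OASL had 156 FPKM there, 14.4 and 3.81 FPKM in 7Y1 and 7Y3, and 3.73 to 56.6 FPKM in white follicles. Leukocyte genes had 0 of 22 members without overlap, and a median of 0.05. The part of these cell types in the differences of other genes was not tested.

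**Figure D4:**
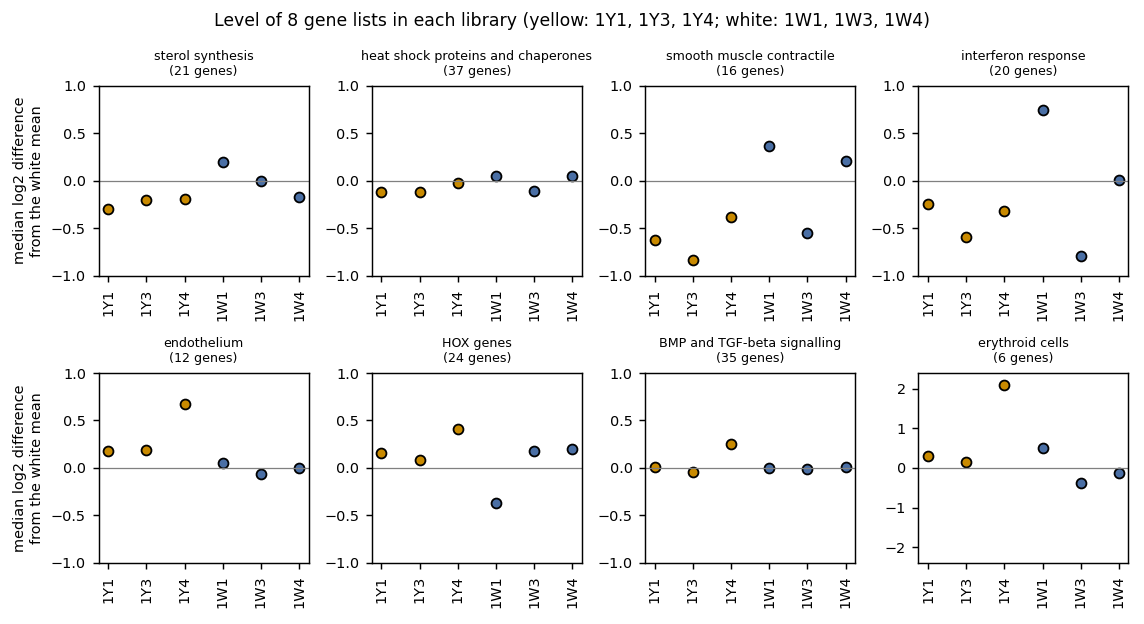
Median over the genes of a list of the log2 difference from the white mean (vertical axes; the erythroid panel has a wider scale) in each library, for 8 lists, with yellow libraries left and white libraries right in every panel. The 3 yellow libraries lie below the 3 white libraries for sterol synthesis and above them for endothelium, while smooth muscle, interferon and HOX genes turn on 1W1, 1W3 or 1Y4.

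Matrix and oxygen-related genes showed single differences. EDIL3, a matrix protein that binds integrins, had 2.66, 4.33 and 2.54 FPKM in yellow and 1.06, 1.10 and 1.23 FPKM in white follicles, and lay above white at 7 weeks too. COL8A1, a short-chain collagen of vessels, had 8.78, 4.86 and 13.99 FPKM in yellow and 1.57, 4.06 and 3.78 FPKM in white follicles, and was the only 1 of 19 tested collagens without overlap. COL1A1, the most abundant collagen, overlapped, with 454 to 1336 FPKM in yellow and 785 to 1059 FPKM in white follicles. FBLN5, a fibulin of elastic fibres, had 2.35 to 2.75 FPKM in yellow and 3.34 to 4.37 FPKM in white follicles. In the hypoxia list, 13 of 18 genes were higher in yellow, 6 lay above (all genes, 8.07%) and 1 below white (all genes, 5.86%), and the median was 0.14. EPAS1, the oxygen-sensitive factor HIF-2 alpha, had 11.4, 20.3 and 16.3 FPKM in yellow and 9.34, 9.06 and 10.1 FPKM in white follicles, and P4HA1, a collagen prolyl hydroxylase induced by hypoxia, had 17.8 to 24.0 FPKM in yellow and 15.5 to 16.8 FPKM in white follicles. P4HA2, another collagen prolyl hydroxylase, was the member on the other side (5.12 to 5.63 FPKM in yellow, 6.31 to 6.71 FPKM in white).

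At the plasma membrane and in ion handling, several low genes had large differences. STEAP4, a reductase of iron and copper, had 2.09, 2.72 and 3.38 FPKM in yellow and 0.24, 0.54 and 0.38 FPKM in white follicles (log2 fold change 2.56 ± 0.38, SE), and passed the filter only through yellow. TM4SF1, a membrane protein with 4 spans, had 9.89, 8.72 and 15.4 FPKM in yellow and 1.41, 2.32 and 2.37 FPKM in white follicles (2.41 ± 0.29). Both belong to a list of membrane genes that the study had chosen on these samples, so their direction is not independent evidence. The same holds for ATP6V1G3, POMC, EDIL3 and COL8A1, which the study had also called on these samples at the older age. ATP6V1G3, a subunit of the vacuolar proton pump, had 6.76, 3.31 and 5.23 FPKM in yellow and 1.90, 1.27 and 1.45 FPKM in white follicles, the largest difference among 40 tested lysosome and proton pump genes, 3 of which lay above and 0 below white. CLIC6, an intracellular chloride channel protein, had 9.27, 12.9 and 25.3 FPKM in yellow and 4.88, 7.31 and 6.20 FPKM in white follicles. SOD1, the copper and zinc superoxide dismutase, had 56.9, 49.9 and 55.9 FPKM in yellow and 66.5, 65.2 and 66.5 FPKM in white follicles, and lay below white at both ages.

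The genes of the cell's basic machinery differed little, and their sizes give a scale for the rest. GAPDH had 1556 to 1579 FPKM in yellow and 1530 to 1621 FPKM in white follicles. In the glycolysis list, LDHB and PGAM1 had 297 to 303 and 415 to 452 FPKM in yellow, against 330 to 353 and 500 to 510 FPKM in white follicles, and ALDOC had 585 to 695 FPKM in yellow and 531 to 565 FPKM in white follicles. Cytosolic ribosomal proteins were higher in yellow in 49 of 65 genes, with a median of 0.05 log2, and nuclear genes of the respiratory chain in 36 of 63, with a median of 0.03. At 7 weeks 9 of the 65 and 10 of the 63 were higher in yellow. Of 41 cell cycle genes 27 were lower at 11 weeks and 14 at 7 weeks, and CDK2, the kinase of S phase entry, was below white at both ages (49.4 to 61.8 FPKM in yellow and 64.2 to 75.0 FPKM in white at 11 weeks). CDK2 ends at position 7091089 of chromosome 33, and PMEL, which carries Dominant white, starts at position 7092008. Any link between their differences was not tested. In the circadian list, the repressors BHLHE40 and BHLHE41 lay on opposite sides, with 68.8, 72.0 and 111 FPKM and 11.8, 8.71 and 11.5 FPKM in yellow, and 47.0, 57.0 and 47.6 FPKM and 12.3, 16.5 and 14.9 FPKM in white follicles. MTHFD2, a mitochondrial enzyme of folate metabolism, had 22.7 to 24.1 FPKM in yellow and 27.3 to 29.2 FPKM in white follicles.

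Other well expressed genes with large differences came from no common list. STBD1, which anchors glycogen to membranes, had 26.3, 25.4 and 52.1 FPKM in yellow and 11.3, 16.3 and 11.4 FPKM in white follicles. PTX3, a pentraxin of innate immunity, had 15.4, 13.5 and 28.7 FPKM in yellow and 7.79, 7.70 and 7.92 FPKM in white follicles. RASSF10, TSPAN16 and SRMS, a Src-related kinase, were likewise highest in 1Y4, at 88.8, 33.1 and 36.5 FPKM, and their other yellow libraries had 38.6 to 46.1, 8.59 to 10.2 and 13.0 to 14.4 FPKM, against 13.5 to 37.1, 2.23 to 5.85 and 8.02 to 8.67 FPKM in white follicles. NAA60, an N-terminal acetyltransferase, was instead highest in 1Y1 (38.4, 24.2 and 26.9 FPKM in yellow, 13.0, 17.2 and 9.35 FPKM in white). On the other side, FAIM2, an inhibitor of Fas-mediated apoptosis, had 8.74, 13.8 and 11.9 FPKM in yellow and 30.9, 23.2 and 15.0 FPKM in white follicles. NTM, the cell adhesion protein neurotrimin, had 43.0, 49.9 and 18.8 FPKM in yellow and 68.1, 51.8 and 63.3 FPKM in white follicles, and NOV, a matricellular protein of the CCN family, had 39.9, 29.9 and 14.1 FPKM in yellow and 42.4, 42.6 and 44.3 FPKM in white follicles. For both, 1Y4 was the lowest library. HPGDS, from the list of glutathione and thiol genes, lay below white in all libraries at both ages. Its log2 fold change was -1.11 at 11 weeks and -2.08 at 7 weeks. The study had already called it at both ages on these samples.

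By level of expression, yellow lay above white for 538 of 6099 genes with a mean of 1 to under 10 FPKM and below for 293. Of these, 56 and 28 had passed the filter only through the group where they were high, and of the other 5721 genes of this class 482 lay above and 265 below. The order turned among the 399 genes of 100 to under 500 FPKM, where 19 lay above and 44 below. Among the 158 genes of at least 500 FPKM, 13 lay above and 10 below. The median absolute log2 fold change was 0.19 in the lowest of these classes and 0.08 to 0.10 in the others.

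Whether a difference was particular to 11 weeks was tested as the difference between the colour effects of both ages in a fit of all 12 libraries. No gene was called (0 of 11638, smallest limma adjusted p = 0.671, and 844 genes with an unadjusted p under 0.05), so no gene can be named as particular to this age. At 7 weeks, yellow lay above white for 13.2% of the same genes and below for 7.85%. Of the 939 genes above white at 11 weeks, 251 (26.7%) were above white at 7 weeks as well, and 17 (1.81%) were below. Of the 682 genes below white at 11 weeks, 142 (20.8%) were below at 7 weeks and 41 (6.01%) above. Both shares in the same direction are higher than the shares over all genes at 7 weeks. The study names 12 individuals and also describes repeated sampling of birds, and no bird was matched between the ages here. Outside pigment, the genes that kept their side at both ages included CRYAB, HSPB1, SCG5, RXRG, FDPS and SOD1 on the lower side, and EDIL3, ATP6V1G3, GJA1, PKP2 and NOTCH1 on the higher side. CRABP-I and CPE were higher in yellow at 7 weeks by 0.60 and 0.77 log2, with overlap. By contrast, BMP2, PTX3, STEAP4 and TSPAN16 had 7-week differences of -0.11, 0.11, 0.22 and -0.16. FJX1, a secreted regulator named after its values were seen, changed sides, with 18.3, 12.7 and 14.1 FPKM in yellow and 4.77, 12.6 and 6.81 FPKM in white follicles at 11 weeks (0.99 log2), and a difference of -0.93 without overlap at 7 weeks.

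**Figure D5:**
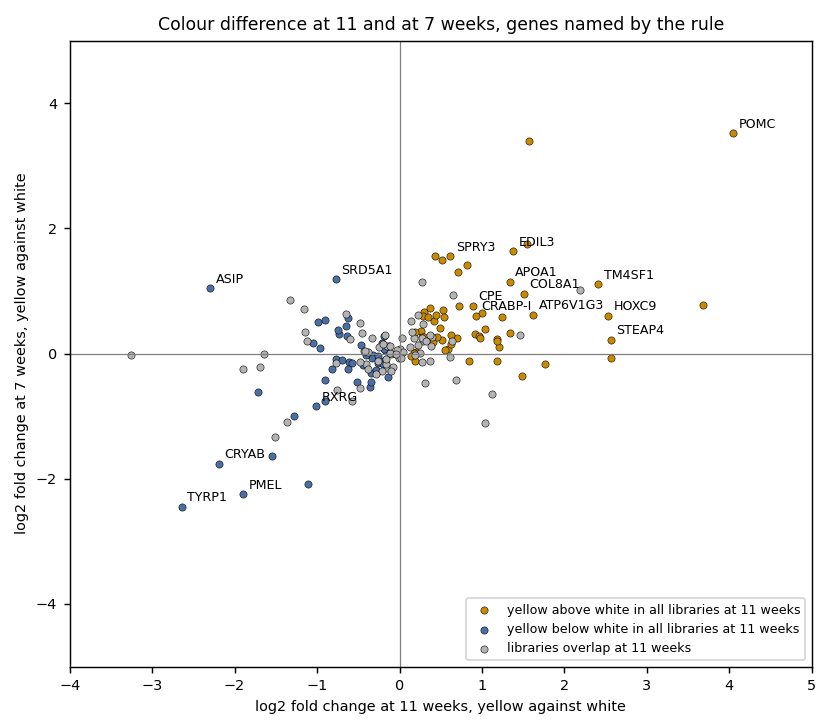
Log2 fold change, yellow against white, at 11 weeks (horizontal axis) and at 7 weeks (vertical axis) for 182 genes named by the rule, coloured by whether the yellow and white libraries of 11 weeks overlapped. POMC and TYRP1 lie far out on the diagonal, while ASIP has -2.30 at 11 weeks and 1.04 at 7 weeks.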

How the data were processed

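RNA of feather follicles was sequenced by the authors, who filtered the reads, aligned them to GRCg6a (Ensembl release 96) with TopHat2 on a Bowtie2 index (version 2.2.3), counted reads per gene with HTSeq (version 0.6.0) and deposited FPKM for each library. Read counts were not analysed here, and errors reflect the spread of libraries, not the reads behind a value. Reads of near-identical genes may have been lost or split, and a value of 0 can be a failed estimate. A pseudocount of 0.1 was added before log2, genes with a mean FPKM under 1 over the 6 libraries were left out, and limma (version 3.58.1, R version 4.3.3) was run with a trended eBayes and Benjamini-Hochberg adjustment, in place of the count-based test of the study. The fit was tested on simulated data. Single genes were compared by an exact permutation test.

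Members, gene lists and rules were chosen with earlier results of these data known. Named were the 12 largest differences in each direction among genes with a symbol, a mean FPKM of at least 10, no overlap and no place in the melanosome list, up to 4 members of each of 36 lists by smallest p with the most abundant member, and genes called in an alternative. Of these, genes not described in the text were left out for length. Genes outside the rule are marked as named after their values were seen. Feather keratins were matched by the symbols of the deposited table after the values were seen, since the RefSeq table used gave no descriptions. CRABP-I was matched to CRABP1 through RefSeq synonyms. Alternatives were other pseudocounts, filters, scalings, variance models, a replicate block, 1Y4 alone against the white libraries, and leaving out each library.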

Additional observations from a re-analysis of the deposited data

Results flagged for a closer look

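FJX1 stood out because its yellow libraries lay above white at 11 weeks (log2 fold change 0.99) and below white at 7 weeks (-0.93), each without overlap. The difference between the ages had an unadjusted limma p of 0.0018 and did not pass adjustment over all genes, and 1Y3 and 1W3 almost met at 11 weeks, at 12.7 and 12.6 FPKM. Over all genes tested, 17 of the 939 above white at 11 weeks were below at 7 weeks.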

How the results depend on the processing

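The count of 0 called genes at 11 weeks held under 18 of 20 alternatives. It was 35 with 1Y4 alone against the 3 white libraries, where the lone yellow library is assumed to vary like the white ones, and 0 to 2 when 1 library was left out, with the 2 calls made without 1Y3. The count for the difference between ages was 0 under all 6 alternatives. Of 124 genes given with values, HPGDS not counted, 115 kept their sign under every alternative run for them. EDQM3 turned to 0.036 under quantile normalization, and F-KER to -0.41 with a pseudocount of 0.01. With 1 library left out, F-KER ran from -1.19 to 4.40, COL1A1 from -0.49 to 0.29, GAPDH from -0.022 to 0.020, CRABP2 from -0.025 to 0.44, HOXB4 from -0.10 to 0.40, HIPK1 from -0.20 to 1.51, LMNB2 from -0.35 to 1.28 and ALAS2 from -0.22 to 0.051. In 1Y1 alone against the white libraries, an alternative chosen after seeing the data, COL1A1 was at 0.051, GAPDH at 0.0072, HOXB4 at -0.37, HIPK1 at -0.50, LMNB2 at -0.52 and ALAS2 at 0.23. The medians of 15 of the 36 lists kept their sign throughout, among them sterol synthesis (-0.33 to -0.17), smooth muscle (-0.76 to -0.34), endothelium (0.08 to 0.43) and heat shock proteins (-0.12 to -0.04). The other 21 changed sign under at least 1 alternative, HOX genes (-0.03 to 0.27) and melanocortin peptides (-0.06 to 0.48) included. With the replicate number as a block, 0 genes were called and 737 had an unadjusted p under 0.05, beside 833 without it. Deviations of same-numbered libraries correlated at 0.199, 0.041 and 0.169, and those of different-numbered libraries at -0.273 to 0.038. Every same-numbered value was thus the higher, the nearest being 0.041 against 0.038. Deviations within a colour sum to 0, so these values are not independent, and no conclusion is drawn from their order. The study describes no pairing by number and the main fit used none, and whether the numbers mark a shared source was not tested. Without read counts, no interval for a single FPKM could be given.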

Other observations

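The following genes did not overlap between the colours and were named after their values were seen. CNTFR, the receptor subunit of ciliary neurotrophic factor, had 6.24, 7.19 and 5.29 FPKM in yellow and 1.55, 1.63 and 2.77 FPKM in white follicles, and lay above white at 7 weeks as well. GATA2, a zinc finger transcription factor, had 6.55, 7.12 and 7.34 FPKM in yellow and 1.57, 3.07 and 2.81 FPKM in white follicles. PPEF1, a calcium-binding protein phosphatase, had 17.5, 11.4 and 18.6 FPKM in yellow and 5.76, 8.11 and 10.3 FPKM in white follicles. TUBA1C, an alpha-tubulin of high level, had 289, 284 and 462 FPKM in yellow and 193, 225 and 190 FPKM in white follicles. It starts at position 7109677 of chromosome 33, near PMEL, which ends at position 7095774. SCARB1, the receptor of high-density lipoprotein, and PLIN4, a lipid droplet coat protein, were highest in 1Y4, at 25.7 and 73.5 FPKM, where the other yellow libraries had 8.02 to 12.8 and 30.7 to 40.8 FPKM, and white libraries had 6.55 to 7.88 and 23.2 to 27.5 FPKM.

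The share of genes higher in yellow differed between chromosomes with at least 100 tested genes, from 32.2% of 230 genes on chromosome 33 to 66.2% of 465 genes on chromosome Z. Without 1Y3, the library with 461 genes at least 2-fold above each other library, the shares of these chromosomes were 53.5% and 55.9%. They were 25.2% and 65.8% without 1Y4, and 28.7% and 68.2% without 1W1. At 7 weeks they were 37.0% and 74.4%.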
